A study of Mus musculus with 8 samples.

Results

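Complement and coagulation genes were followed in the livers of mice fed the Control or the Low AA diet. The gene set was a list fixed by symbol, with 12 complement components, 13 clotting factors, and 12 inhibitors, anticoagulants and fibrinolysis genes. All 37 were among the 11784 genes of the deposited table. The mice were male C57BL/6J, and they were switched from chow to the amino acid defined diets at 9 weeks of age. Livers were taken about 4 months later, once food had been withheld for 16 hours overnight. Relative to the Control diet, the Low AA diet had a smaller share of its calories from amino acids and a larger share from carbohydrate. There were 4 mice in each group, named here by their codes: F129, F2212, F7111 and F2110 on the Control diet, and H1126, H828, H817 and H1315 on the Low AA diet. Values in sentences below follow this order. Mice were group housed, and the cage of each mouse is not given in the sources used here, so cage and diet effects cannot be told apart. The tests treat the mice of a diet as independent, and their p-values may be too small if cage mates resemble each other. Values after ± are SDs over the 4 mice of a diet.

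Complement and clotting are proteolytic cascades of the blood, and the liver secretes most of their proteins. In complement, C1q recognises antibody on a surface (the classical pathway) and mannose-binding lectins recognise microbial sugars (the lectin pathway), and the proteases bound to each build an enzyme that cleaves C3. In coagulation, a chain of proteases made by hepatocytes ends in thrombin, which turns fibrinogen into fibrin, while antithrombin, protein C and the plasmin system restrain or undo the clot. Several of these genes, the fibrinogen chains among them, are also acute-phase genes that hepatocytes raise in response to interleukin-6.

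Each value is a read count per gene that the authors scaled between mice and rounded, called a scaled read count here. Scaled read counts summed to between 27876664 and 30799385 per mouse. Their median over the listed genes was 433 to 449. All 7 hepatocyte markers examined were listed, with sums of 2130609 to 2511778 in Control and 2398863 to 2605724 in Low AA livers. Control mouse F2212 stood apart from the other livers. Its acute-phase genes averaged 1.42 above the mean of the 8 mice in log2 units. Low AA mouse H828 was the lowest, at -1.16, and the remaining mice ranged from -0.37 to 0.32. The value of F2212 for the pancreas gene Cela1 was 36587, against 130 to 288. Values without F2212 are given beside the larger differences that it moved.

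None of the 37 listed genes passed the test between the diets. In limma on log2(value + 1), adjusted over all 11784 genes, 0 of 37 had an adjusted p under 0.05, against 0.399% of all genes (0.102% with higher and 0.297% with lower values under Low AA), and the smallest adjusted p was 0.284, for F11. At an unadjusted p under 0.05 there were 4 of 37, or 10.8%, beside 11.8% of all genes. These were Mbl2, F11, Serping1 and Serpinf2, all with lower means on the Low AA diet, where 6.7% of all genes had an unadjusted p under 0.05 in that direction, and 0 of 37 had higher means, beside 5.13% of all genes. In 0 of 37 genes were the values of the 2 diets free of overlap, beside 6.81% of all genes. The signs were nearly even, with 19 of 37 log2 fold changes below 0 beside 49.5% of all genes, and the median over the 37 was -0.0017 beside 0.0023 over all genes.

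The data were precise enough to bound most of these differences. For 30 of the 37 genes, or 81.1%, the 95% interval of the log2 fold change lay inside a 1.5-fold change in either direction, as it did for 64.6% of all genes and for 2878 of the 3699 genes whose mean was at least that of the lowest member. The intervals are those of single genes and are not adjusted for their number. The exceptions were C1qa, C3, Mbl1, Mbl2, Masp1, F11 and Serping1, whose intervals reached beyond 1.5-fold on one side. Together the 37 genes took up 3.34% ± 0.362 of all scaled reads in the Control mice and 3.49% ± 0.0795 in the Low AA mice, with Control values from 2.98% to 3.71% that enclosed all 4 Low AA values.

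**Figure D1:**
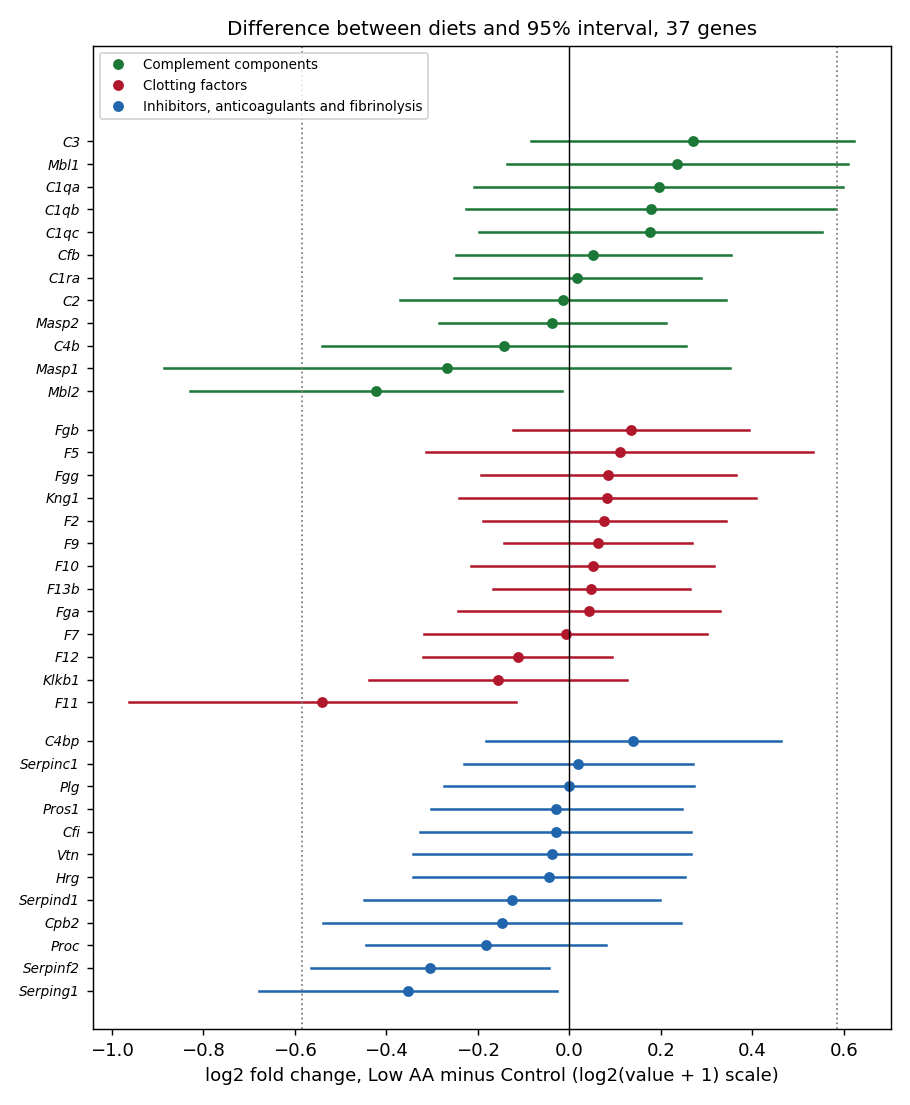
Log2 fold change between the diets (x axis, Low AA minus Control on the log2(value + 1) scale) for each of the 37 genes (y axis), with points for the limma estimate, bars for its 95% interval and dotted lines at a 1.5-fold change. The points run from -0.54 for F11 to 0.27 for C3, and 4 bars, all on the lower side, do not cross 0.

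Of the 12 complement components, 7 had positive and 5 negative log2 fold changes, with a median of 0.035. The classical pathway begins with C1q, a protein of 3 chains that in the liver is made mainly by Kupffer cells, the resident macrophages. Its genes lie side by side on chromosome 4, C1qb from 136880129 to 136886187, C1qc from 136889804 to 136893065 and C1qa from 136895917 to 136898803 (GENCODE on GRCm38). C1qa stood at 1083, 1478, 841 and 803 scaled read counts in the Control mice and at 1231, 1026, 1147 and 1284 in the Low AA mice. C1qb stood at 1322, 1529, 866 and 1029 on the Control diet and at 1418, 1043, 1339 and 1491 on the Low AA diet. C1qc stood at 892, 1254, 729 and 707 on the Control diet and at 1008, 906, 1026 and 1005 on the Low AA diet. For each chain the highest value of all 8 mice was in Control mouse F2212 and the lowest was in another Control mouse, so the Low AA values fell inside the Control range.

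The log2 fold changes of the C1q chains were 0.20 for C1qa, 0.18 for C1qb and 0.18 for C1qc, with limma adjusted p of 0.75, 0.778 and 0.757. Without F2212 they were 0.37, 0.31 and 0.35, with limma adjusted p of 0.277, 0.494 and 0.233. C1qc then did not overlap between the diets, and nor did 11.7% of all genes. Leaving out a Control mouse with low C1q shrank them, to 0.10, 0.038 and 0.091 without F7111 and to 0.081, 0.12 and 0.076 without F2110. The chains moved together from mouse to mouse. The SD within diets was 0.30 for C1qa and 0.27 for C1qc on the log2 scale, but 0.071 for the difference between them, and it was 0.13 and 0.16 for the differences of C1qb from C1qa and C1qc. For none of the 3 chain ratios was a difference between the diets found beyond the spread between mice (two-sided exact permutation test, p = 0.914, 0.743 and 0.971, and 0.971 each when adjusted over 6 chain pairs, where 0.0286 is the smallest unadjusted p that 4 mice against 4 allow).

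Kupffer cell markers were read beside C1q. All 11 macrophage markers examined were listed, all 11 had positive log2 fold changes, with a median of 0.24, and in limma 0 passed the adjusted test and 2 had an unadjusted p under 0.05. Their summed level ran from 11544 to 15320 in the Control livers and from 12369 to 16187 in the Low AA livers, and none was at 0. The mean deviation of these markers was 0.16 in F2212, where C1q was highest, and -0.28 and -0.20 in F7111 and F2110, where it was lowest. It was -0.19 in F129, where C1qb was above its mean but C1qa and C1qc were below theirs. In Low AA mice H1126, H828, H817 and H1315 it was 0.26, -0.13, 0.16 and 0.23. The markers, C1qa and C1qc were thus above their means in F2212, H1126, H817 and H1315 and below them in the other mice. The highest mouse differed, as the markers were highest in H1126 and each C1q chain in F2212. The part of Kupffer cell number in the C1q values was not tested, and in bulk liver more cells of a type and more RNA per cell cannot be told apart.

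Downstream of C1q, the protease C1ra and the components C2 and C4b, which form the classical C3 convertase, all had intervals that included 0 and stayed inside a 1.5-fold change. C1ra had 7899 ± 1248 scaled read counts on the Control diet and 7928 ± 441 on the Low AA diet, a log2 fold change of 0.017 with a 95% interval of -0.25 to 0.29. C2 had a log2 fold change of -0.014 with an interval of -0.37 to 0.34. C4b, with means of 32495 and 29307, had -0.14 with an interval of -0.54 to 0.26, and it was -0.057 without F2212, -0.032 without H828 and -0.26 without F2110. Reads of C4b and its near-identical copy C4a, and of C1ra and its copy C1rb, may have been divided between the copies in counting.

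C3, on which all the pathways converge, had the highest scaled read counts of the 37 genes. Per kilobase of the longest coding transcript its level was 37697 on the Control diet and 44846 on the Low AA diet, near the 39226 and 41517 of Fgg and the 36946 and 38052 of Fga. C3 stood at 157159, 220883, 232134 and 164273 in the Control mice and at 229978, 252006, 218470 and 220860 in the Low AA mice. Control mice F129 and F2110 were low, and the other Control mice lay among the Low AA mice. Its log2 fold change, 0.27, was the largest positive one of the 37 (standard error 0.16, limma adjusted p = 0.569). It ran from 0.18 without F129 (limma adjusted p = 0.797) to 0.36 without F7111. Without F7111 the unadjusted limma p was 0.048 and the adjusted p 0.369. The log2 fold change was 0.20 without F2110. Without F2212 it was 0.34, with an unadjusted limma p of 0.0742 and an adjusted p of 0.463. Cfb, which with C3 forms the convertase of the alternative pathway, had means of 25507 and 26150 scaled read counts and a log2 fold change of 0.052, with an interval of -0.25 to 0.35. Cfb and C2 are neighbours on chromosome 17 with 85 bases between them, on the same strand.

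The genes of the lectin pathway had log2 fold changes of both signs. Mbl1 stood at 5905, 6743, 4173 and 4149 in the Control mice and at 5370, 5828, 6048 and 7008 in the Low AA mice, giving a log2 difference of 0.24 with a standard error of 0.17 (adjusted p = 0.655 in limma). The difference in Mbl1 was 0.37 without F2212, with an unadjusted limma p of 0.0325 and an adjusted p of 0.35, and 0.14 and 0.13 without F7111 and F2110. Mbl2, on chromosome 19 from 30232942 to 30239687, stood at 4459, 5957, 4140 and 2953 in the Control mice and at 2827, 3186, 3504 and 3189 in the Low AA mice. The Control mice apart from F2110 were above all the Low AA mice. The log2 fold change of Mbl2 was -0.42 with a standard error of 0.18, and limma gave it an unadjusted p of 0.0427 and an adjusted p of 0.405. It was -0.26 without F2212, with an unadjusted p of 0.11, and -0.60 without F2110, with an adjusted p of 0.16. Mbl1 and Mbl2 both encode mannose-binding lectins, and each overlapped between the diets.

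Masp1 and Masp2 encode the serine proteases that the lectins carry. Masp1 stood at 1173, 700, 2172 and 1556 in the Control mice and at 1185, 1092, 989 and 1031 in the Low AA mice. F7111 was high and F2212 low, and the SD of Masp1 within diets, 0.50 on the log2 scale, was the largest of the 37 genes. Its log2 fold change was -0.27 (limma adjusted p = 0.78). It was -0.56 without F2212 and -0.018 without F7111, so its size rested on those Control mice. Masp2 had 6481 ± 385 and 6349 ± 808 scaled read counts and a log2 fold change of -0.037, with an interval of -0.28 to 0.21.

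Of the 13 clotting factors, 9 had positive and 4 negative log2 fold changes, with a median of 0.050. The 4 vitamin K dependent proteases, which need a carboxylated glutamate domain to bind membranes, all had intervals inside a 1.5-fold change. Thrombin's precursor F2 had 38615 ± 5280 scaled read counts on the Control diet and 40456 ± 2058 on the Low AA diet, a log2 fold change of 0.076 with an interval of -0.19 to 0.34. F7, F9 and F10 had log2 fold changes of -0.0078, 0.063 and 0.050, with intervals of -0.32 to 0.30, -0.14 to 0.27 and -0.22 to 0.32. F7 and F10 are neighbours on chromosome 8, 1498 bases apart. F5, which as its activated form is the cofactor of activated factor X, stood at 12344, 12827, 23583 and 15499 in the Control mice and at 16106, 18444, 17858 and 14786 in the Low AA mice, which gives a log2 difference of 0.11 (adjusted p = 0.881 in limma). The spread of F5 came from the Control mice, with F7111 the highest of all 8 and F129 the lowest. The difference was 0.31 without F7111, with an unadjusted limma p of 0.031 and an adjusted p of 0.318, but 0.018 without F2212 and -0.00015 without F129.

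Factor XI and the contact proteases F12 and Klkb1 had negative log2 fold changes. F11, on chromosome 8 from 45241174 to 45262031, encodes factor XI, which activates factor IX. It stood at 960, 797, 1523 and 1027 in the Control mice and at 716, 664, 629 and 895 in the Low AA mice. F7111 was far above the other Control mice, and the only overlap was between Control mouse F2212 at 797 and Low AA mouse H1315 at 895. The log2 fold change, -0.54, was the most negative of the 37 with a standard error of 0.19, and limma gave it an unadjusted p of 0.0173 and an adjusted p of 0.284. It ran from -0.67 without F2212 to -0.36 without F7111, and the adjusted p was 0.148 and 0.337. As F2212 and H1315 were the only overlapping mice, leaving out either removed the overlap. Among all genes, 11.7% did not overlap without F2212 and 12.7% without H1315. Klkb1, the plasma kallikrein gene 4657 bases away on the same strand, stood at 4044, 4004, 5671 and 4309 in the Control mice and at 3937, 4541, 3766 and 3820 in the Low AA mice, which gives a log2 difference of -0.16 (adjusted p = 0.71 in limma). F7111 was the highest of the 8 mice for both neighbours, and without it the difference in Klkb1 was -0.040.

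F12, which starts the contact pathway, had 13103 ± 595 and 12130 ± 914 scaled read counts, a log2 fold change of -0.11 with an interval of -0.32 to 0.094, and without H1126 it was -0.065. Kng1, which encodes the kininogen cofactor of the contact pathway, had means of 52276 and 55472 and a log2 fold change of 0.082, with an interval of -0.24 to 0.41. Kng1 has a paralogue, Kng2, and the division of reads between them is uncertain. F13b, the carrier subunit of the enzyme that crosslinks fibrin, had a log2 fold change of 0.048 with an interval of -0.17 to 0.26. For F12, Kng1 and F13b the interval included 0 and stayed inside a 1.5-fold change.

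Fibrinogen is a protein of 3 chains whose genes lie together on chromosome 3, Fgg from 83007724 to 83015049, Fga from 83026076 to 83033627 and Fgb from 83040141 to 83049863, the last on the opposite strand. Sequences before the RefSeq start of each gene are shown because the chains are made together, each 5′ to 3′ on the strand of its gene (RefSeq, GRCm38.p6). These starts can differ from the GENCODE positions above, and the Fga stretch lies inside the GENCODE gene, whose start is further upstream. The stretches of Fgb and Fgg end at the RefSeq start, but that of Fga is a 30-base excerpt that ends before it. The ATTAAC of Fga begins 43 bases before the RefSeq start, and that of Fgb 29 bases before. Capitals mark ATTAAC, the other strand of GTTAAT, the core letters of an HNF1 site, and CTGGGAA, the letters of an interleukin-6 response element.
Fga, chr3:83026098-83026127, plus strand: ccaagggtgatgATTAACctcctgccggtt
Fgb, chr3:83049864-83049983, minus strand: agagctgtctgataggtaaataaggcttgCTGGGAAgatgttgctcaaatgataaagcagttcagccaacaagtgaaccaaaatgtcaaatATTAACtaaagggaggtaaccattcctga
Fgg, chr3:83007604-83007723, plus strand: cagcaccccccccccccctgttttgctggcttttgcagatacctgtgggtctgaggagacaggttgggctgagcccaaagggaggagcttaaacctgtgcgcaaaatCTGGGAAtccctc
In the 250 bases before the start, searched on both strands, GTTAAT was found for Fga and Fgb and CTGGGAA for Fgb and Fgg. Of the 27 members with a promoter sequence, GTTAAT was also found for C1ra, C4bp, F13b and Vtn, and CTGGGAA for C1ra, F9 and Masp2. Over all 32851 promoter windows of that length, 6.43% held GTTAAT and 9.1% held CTGGGAA. The letters do not overlap each other, and a match is only a match of letters.

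Fga stood at 97059, 97986, 105748 and 81527 scaled read counts in the Control mice and at 112968, 87942, 94127 and 98725 in the Low AA mice. Fgb stood at 86718, 104781, 91018 and 85974 on the Control diet and at 103822, 91337, 101625 and 107300 on the Low AA diet. Fgg stood at 62508, 81095, 64878 and 64686 on the Control diet and at 76906, 64650, 68886 and 78683 on the Low AA diet. Control mouse F2212, the liver with high acute-phase genes, had the highest Fgg of all and the highest Fgb of the Control mice. The log2 fold changes were 0.043 for Fga, 0.14 for Fgb and 0.085 for Fgg, with limma adjusted p of 0.936, 0.73 and 0.853 and intervals of -0.24 to 0.33, -0.12 to 0.39 and -0.19 to 0.36. Without F2212 they were 0.057, 0.20 and 0.17, none with a limma adjusted p under 0.05. Fgb then no longer overlapped between the diets, and nor did 11.7% of all genes.

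Fgb and Fgg kept a nearly fixed ratio across the 8 livers. Their log2 difference lay between 0.37 and 0.56, and its SD within diets was 0.057, beside 0.12 for Fgb and 0.15 for Fgg alone. The differences of Fga from Fgb and Fgg had SDs of 0.14 and 0.17 within diets, close to the 0.16 of Fga alone. No difference between the diets was found in the 3 ratios (two-sided exact permutation test, p = 0.286, 0.743 and 0.286 for Fga against Fgb, Fga against Fgg and Fgb against Fgg, adjusted p = 0.857, 0.971 and 0.857). The 3 chains together made up 0.88% ± 0.0707 of all scaled reads on the Control diet and 0.936% ± 0.0677 on the Low AA diet.

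**Figure D2:**
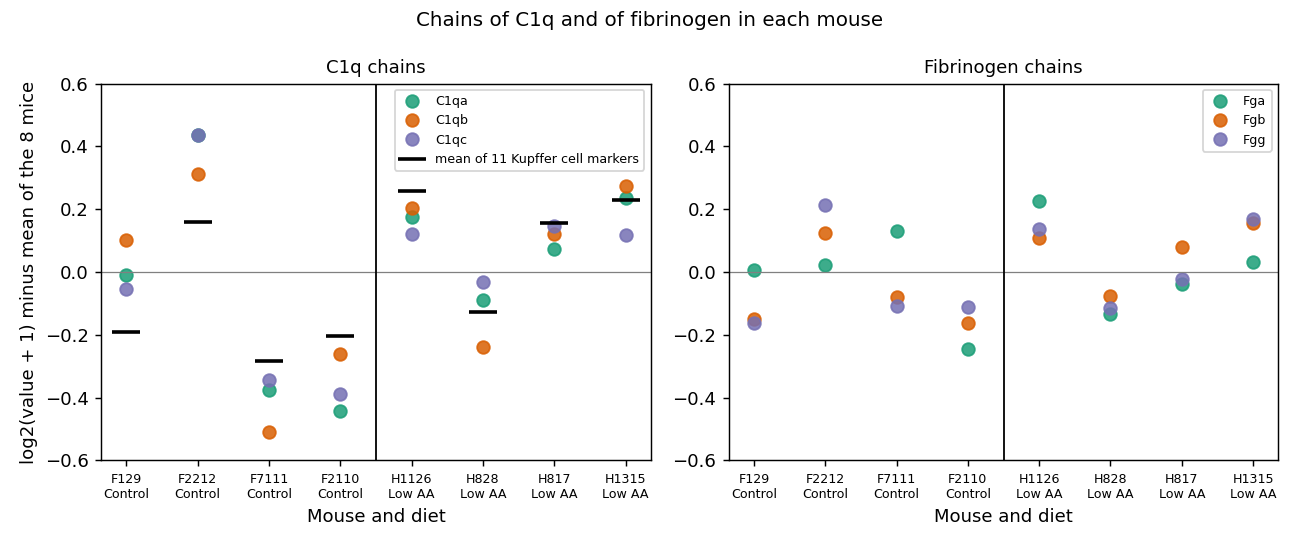
Deviation of each mouse (x axis) from the mean of the 8 mice on the log2(value + 1) scale (y axis) for the chains of C1q (left, with the mean of 11 Kupffer cell markers as black bars) and of fibrinogen (right), with a vertical line between the diets. The C1q chains are highest in F2212 and lowest in F7111 and F2110, while Fgb and Fgg lie close together in most mice and Fga furthest above them in F7111.

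Of the 12 inhibitors, anticoagulants and fibrinolysis genes, 10 had negative log2 fold changes and 2 positive, with a median of -0.041. Serping1, on chromosome 2 from 84765387 to 84775444, encodes C1 inhibitor, which blocks the C1 proteases, the lectin proteases, kallikrein and factor XII. It stood at 22748, 29707, 24707 and 21095 in the Control mice and at 19912, 15214, 19525 and 22440 in the Low AA mice. Low AA mouse H1315 alone lay within the Control range. The log2 fold change was -0.35 with a standard error of 0.15, and limma gave it an unadjusted p of 0.0366 and an adjusted p of 0.381, with F2212 the highest of all mice and H828 the lowest. Without F2212 it was -0.26 with an unadjusted limma p of 0.0991, and without either H1315 or F2110 the diets did not overlap. Among all genes, 12.7% did not overlap without H1315 and 10.2% without F2110.

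Serpinf2, on chromosome 11 from 75431732 to 75439591, encodes alpha-2-antiplasmin, the main inhibitor of plasmin. It stood at 20095, 20005, 20425 and 20796 in the Control mice and at 15577, 14646, 15610 and 20594 in the Low AA mice. The Control mice were nearly equal, with an SD of 359 around a mean of 20330, and Low AA mice H1126, H828 and H817 were all below them, but H1315 lay among them. The log2 fold change was -0.30 with a standard error of 0.12, and limma gave it an unadjusted p of 0.0262 and an adjusted p of 0.335. Without H1315 the diets did not overlap, as for 12.7% of all genes. The limma adjusted p was then the smallest of any of the 37 genes under any setting, 0.113. The interval of Serpinf2, -0.57 to -0.044, stayed inside a 1.5-fold change.

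**Figure D3:**
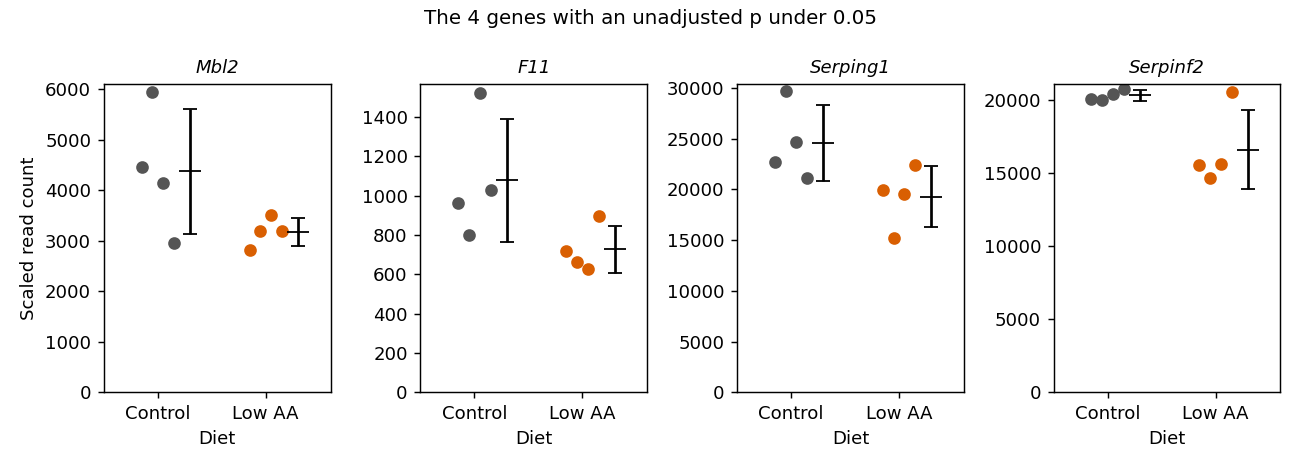
Scaled read counts (y axis, from 0) in each mouse by diet (x axis) for the 4 genes with an unadjusted p under 0.05, with points for mice and bars for the mean ± SD of 4 mice. In each gene the Low AA mean is lower and the diets overlap, for F11, Serping1 and Serpinf2 through the highest Low AA mouse, H1315.

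The other complement inhibitors had intervals that included 0. Cfi, the protease that cleaves C3b and C4b, had 11444 ± 2065 and 11085 ± 712 scaled read counts and a log2 fold change of -0.030, with an interval of -0.33 to 0.27. C4bp, a cofactor for that cleavage, stood at 10607, 15597, 10713 and 10504 in the Control mice and at 12894, 11102, 13313 and 14400 in the Low AA mice, which gives a log2 difference of 0.14 (adjusted p = 0.78 in limma). F2212 was far above the other Control mice, which were all below the Low AA mice. Without F2212 the difference in C4bp was 0.28 (adjusted p = 0.334 in limma) and the diets did not overlap, as for 11.7% of all genes. Vtn, which encodes vitronectin, a protein that binds the terminal complement complex and a plasminogen activator inhibitor, had means of 51153 and 49499 and a log2 fold change of -0.038, with an interval of -0.34 to 0.27.

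Among the anticoagulants, Serpinc1, which encodes antithrombin, stood at 45532, 53528, 50575 and 41413 in the Control mice and at 46432, 45973, 49269 and 51210 in the Low AA mice, a log2 fold change of 0.019 with an interval of -0.23 to 0.27. Serpind1, encoding heparin cofactor II, had a log2 fold change of -0.12 with an interval of -0.45 to 0.20, and it was -0.0050 without F7111 and -0.20 without H1315. Proc, encoding protein C, had 10953 ± 1626 and 9575 ± 484 scaled read counts and a log2 difference of -0.18 (adjusted p = 0.611 in limma). The difference in Proc was -0.11 without F2212, and -0.28 without F2110, where the diets did not overlap, as for 10.2% of all genes. Pros1, encoding the cofactor of protein C, had a log2 fold change of -0.029 with an interval of -0.30 to 0.25. The intervals of these anticoagulant genes all lay inside a 1.5-fold change and included 0.

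In the plasmin system, Plg, encoding plasminogen, had the smallest difference of all 37 genes, with 57944 ± 5805 scaled read counts on the Control diet and 57936 ± 6490 on the Low AA diet, and an interval of the log2 fold change of -0.28 to 0.27. Cpb2, a carboxypeptidase that removes plasminogen binding sites from fibrin, had a log2 fold change of -0.15 with an interval of -0.54 to 0.24, but -0.010 without F2212, -0.034 without H828 and -0.28 without F2110. Hrg, a plasma glycoprotein that binds plasminogen and heparin, had -0.044 with an interval of -0.34 to 0.25. Within this system only Serpinf2 had an unadjusted p under 0.05.

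Single mice stood out over many of these genes. Control mouse F2110 had the lowest value of the 8 mice for 16 of the 37 genes, while it was lowest for 10.6% of all genes and for 11.8% of the 3699 genes at or above the lowest member's mean. Control mouse F2212 had the highest value for 13 of the 37, beside 20.7% of all genes. With each mouse rescaled to the same total, an alternative chosen after seeing the data, these counts were 12 and 16. On the log2 scale, the median deviation of the 37 genes from their means was -0.21 in F2110 and -0.11 in Low AA mouse H828. It was 0.13 in both F2212 and Low AA mouse H1315, and 0.10 in F7111. In the remaining mice it lay between -0.018 and 0.018. The median deviation over all genes was between -0.00073 and 0.015 in every mouse. The genes of F2110 that were lowest included the fibrinogen chains Fga and Fgb, F2, F10, Kng1, Serpinc1, Proc, Vtn, Cfb and C2. The plot of deviations by mouse shows F2110 as a mostly low column with Masp1, F11, Pros1 and Serpinf2 the furthest above their means.

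**Figure D4:**
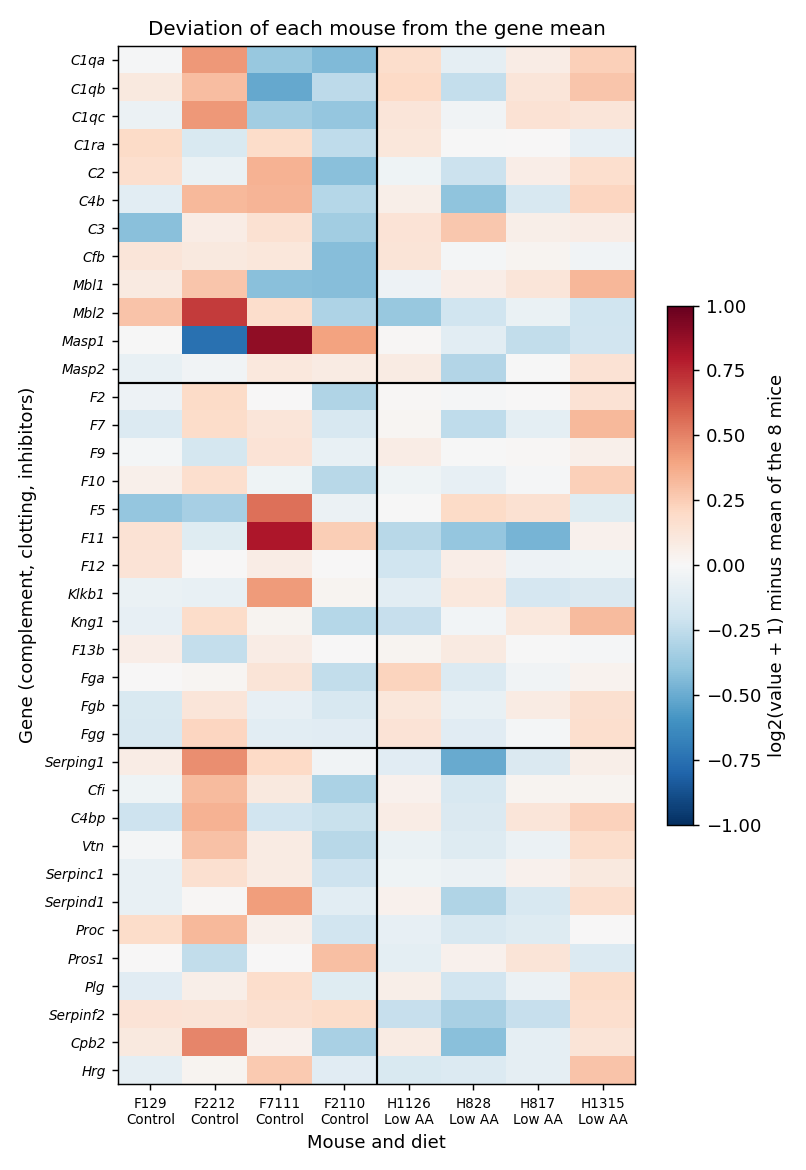
Deviation of each mouse (columns) from the gene mean on the log2(value + 1) scale (colour, red above and blue below the mean) for the 37 genes (rows, complement, clotting and inhibitors separated by horizontal lines), with a vertical line between the diets. F2110 has the lowest value for 16 genes and F2212 the highest for 13, and the Low AA columns are paler than the Control columns for most complement genes.

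Most genes in the table varied less among the Low AA mice than among the Control mice, members included. The SD on the log2 scale was smaller on the Low AA diet for 29 of the 37 genes, or 78.4%, beside 67.5% of all genes and 71.5% of the 3699 genes at or above the lowest member's mean, and for 11 of the 12 complement components. The median SD of the complement components was 0.34 on the Control diet and 0.13 on the Low AA diet, and that of all genes was 0.23 and 0.17. Without F2110 it was smaller for 24 of 37, or 64.9%, beside 65.7% of all genes and 69.6% of the genes of comparable mean, and without F2212 for 26 of 37, or 70.3%, beside 57.4% and 60.3%. The difference in spread was not tested and is a description of these 8 mice.

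Other genes of these pathways were taken from a list of 73 symbols, of which 55 were in the table. Of the 55, 25 had positive and 30 negative log2 fold changes, with a median of -0.020, and 1 passed the adjusted test, beside the 0.399% of all genes given above. That gene was Serpine2, which encodes protease nexin-1, an inhibitor of thrombin and of plasminogen activators. Serpine2 stood at 248, 190, 512 and 246 scaled read counts in the Control mice and at 92, 103, 71 and 65 in the Low AA mice. Every Low AA mouse was below every Control mouse, and the highest Control value was in F7111. It fell by 1.76 on the log2 scale with a standard error of 0.28 (adjusted p = 0.0368 in limma). With 1 mouse left out, the adjusted p was 0.0215 without F2212 and 0.0223 without F7111, but without F129, F2110, H1126, H828, H817 or H1315 it was 0.0665, 0.0647, 0.091, 0.065, 0.125 and 0.0703, with log2 differences of -1.47 to -1.94 over all 8 omissions.

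Without overlap between the diets and with an unadjusted p under 0.05 were also C4a, C1rl and Vwf, all with lower means on the Low AA diet. C4a stood at 214, 264, 332 and 223 in the Control mice and at 145, 91, 135 and 197 in the Low AA mice, which gives a log2 difference of -0.89 (adjusted p = 0.146 in limma). C1rl, a protease similar to C1r, and Vwf, the carrier of factor VIII made by endothelium, had log2 fold changes of -0.24 and -0.25, with limma adjusted p of 0.379 and 0.4. The level of C4a was far below that of its copy C4b, and reads shared between the copies cannot be told apart.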

How the data were processed

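Liver poly(A) RNA of 8 mice was sequenced from stranded libraries. The submitters' processing notes name STAR 2.5.0a, RSEM 1.2.6, edgeR 3.10.5 and the build mm10, with no role or order given. The authors deposited a whole-number signal for each gene and mouse, which is a scaled and rounded read count. The scaling was inferred from medians over genes that were nearly equal in all mice, and its method is not given in the sources used here. Count models were therefore not applied, and the raw depth is unknown. The third-highest of the 8 values was at least 28 for each gene, so the table holds no gene of very low expression. The authors' own fold change and FDR columns were not used.

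The test was limma 3.58.1 (R 4.3.3) on log2(value + 1), with the trend option on and p-values adjusted by the Benjamini-Hochberg method over 11784 genes. Genes were called at an adjusted p under 0.05, and 0 genes failed a filter of 1 or more in 4 mice. The fit was tested on simulated data. Intervals are moderated 95% intervals, and the added 1 shrinks the fold changes of low genes. Chain ratios were compared by exact permutation tests with scipy 1.17.1. Lengths are those of the longest coding transcript in GENCODE M21. Promoters came from RefSeq.

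Members and lists were chosen with earlier results of these data known. All members are named. Values in every mouse are given for those with an unadjusted p under 0.05, for the C1q and fibrinogen chains, and for the 2 largest differences in each direction of each class. Other pathway genes are named where they passed the adjusted test, or had an unadjusted p under 0.05 without overlap. Not every gene that met this rule is reported here. Lists of 7 hepatocyte, 11 macrophage, 8 sinusoidal endothelial, 8 stellate, 5 cholangiocyte, 5 neutrophil, 5 red cell and 6 pancreas markers and of 21 acute-phase genes were also examined.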

Additional observations from a re-analysis of the deposited data

Results flagged for a closer look

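Groups of 4 values, each for 1 measure in the mice of 1 diet, were examined. Among 92 such groups, 8 had 1 mouse far from the other 3 by Dixon's criterion. Chance gives about 1 in 20 for a single group. The groups come from the same 8 mice and are not independent, so their number cannot be judged against that rate. Control mouse F2212 was high for Fgg, at 81095 against 62508 to 64878 (gap over range 0.857), and for C4bp, at 15597 against 10504 to 10713 (0.95). Control mouse F2110 was low for Cfb, at 19054 against 27405 to 27836 (0.959). Low AA mouse H1315 was high for F2, at 43528 against 39149 to 39583 (0.896), and for Hrg, at 34887 against 25760 to 26868 (0.861). Low AA mouse H828 was low for C1qc, at 906 against 1005 to 1026 (0.834), and for Cfi, at 10021 against 11389 to 11518 (0.919), and its log2 difference of C1qa from C1qb was -0.02 against -0.22 to -0.20 (0.904).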

How the results depend on the processing

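In every setting tried, 0 of the 37 genes passed. The settings were pseudocounts of 0.1 and 5, the table reduced to its 8000 most abundant genes, equal column totals, no mean-variance trend, and each mouse left out. The number of all genes called moved from 47 to 19 among the 8000 genes and 30 without the trend, and lay between 16 and 77 with a mouse left out. Of the other pathway genes, 0 were called among the 8000 genes and without the trend, and 0 to 3 with a mouse left out. With a mouse left out, the median log2 fold change ran from -0.041 to 0.092 for complement, from -0.010 to 0.082 for clotting and from -0.14 to -0.011 for inhibitors, and the complement and clotting medians turned negative without Control mouse F2110. Members with an unadjusted p under 0.05 numbered 3 without the trend, beside 11.7% of all genes, and 1 to 7 with a mouse left out, beside 7.84% to 13.3%. The 7, without Control mouse F2212, where the share of all genes was 12.4%, included C1qa, C1qc, Mbl1 and C4bp with positive values, and the 1 was F11 without H1126 or H828 and Mbl2 without H817. Members free of overlap between the diets numbered 0 to 4 with a mouse left out, beside 7.98% to 12.7% of all genes. There were 4 without F2212, 3 without H1315 and 3 without F2110, beside 11.7%, 12.7% and 10.2% of all genes.

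The sign was kept in all settings by 20 members. For the other 17 it turned with a mouse left out, and these log2 fold changes were between -0.065 and 0.085 (C1ra), -0.16 and 0.099 (C2), -0.082 and 0.10 (Cfb), -0.091 and 0.054 (Masp2), -0.010 and 0.15 (F2), -0.12 and 0.077 (F7), -0.034 and 0.12 (F10), -0.00015 and 0.31 (F5), -0.0086 and 0.17 (Kng1), -0.024 and 0.082 (F13b), -0.032 and 0.095 (Fga), -0.14 and 0.070 (Cfi), -0.14 and 0.053 (Vtn), -0.047 and 0.076 (Serpinc1), -0.12 and 0.066 (Pros1), -0.064 and 0.062 (Plg) and -0.15 and 0.037 (Hrg). With equal column totals that of Plg was 0.0018. Chain differences with a mouse left out ran from -0.040 to 0.065 for C1qa against C1qb, -0.017 to 0.047 for C1qa against C1qc, -0.053 to 0.071 for C1qb against C1qc and -0.11 to 0.030 for Fga against Fgg, and with 3 mice against 4 no p under 0.0571 was possible. The cause was not tested. Tests on raw counts were not run because the values are scaled. No paired analysis was possible because the mouse codes are not shared between the diets.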

Other observations

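Markers of other cells were read in the same livers. Summed scaled read counts of the 8 sinusoidal endothelial markers were 7011 to 9784 on the Control diet and 8493 to 9107 on the Low AA diet. Those of the 8 stellate cell markers were 7928 to 10354 and 8253 to 10330, and most of this sum was Dcn. Of the endothelial markers 6 had positive log2 fold changes, with a median of 0.056. Of the stellate markers 2 did, with a median of -0.16. In limma 0 of either list had an adjusted p under 0.05, and 1 stellate marker had an unadjusted p under 0.05. The 4 cholangiocyte markers listed summed to 1124 to 2265 and 826 to 1316, all with negative log2 fold changes and a median of -0.62. In limma 2 of these 4 had an unadjusted and 0 an adjusted p under 0.05. Of the neutrophil markers S100a9 was listed, at 19 to 130 on the Control diet and 20 to 51 on the Low AA diet. The 4 red cell markers listed summed to 7206 to 27464 and 9211 to 13541, highest in Control mouse F2212. All had negative log2 fold changes, and in limma 2 had an unadjusted and 0 an adjusted p under 0.05. The 21 acute-phase genes summed to 298811 to 628460 and 303394 to 395721, with F2212 again the highest. Of their log2 fold changes 7 of 21 were positive, with a median of -0.35. In limma 5 had an unadjusted and 0 an adjusted p under 0.05. Those 5 were Saa1, Saa4 and Orm1, with log2 fold changes of -3.49, -1.29 and -2.06, and Apcs and Cp, with 1.03 and 0.26. Orm1 was 8111 to 16131 on the Control diet and 955 to 5794 on the Low AA diet (limma adjusted p = 0.0908).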
